A study of Mus musculus with 12 samples.

Results

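Il2ra, Il7r and Il2rg encode chains of the receptors for interleukin-2 (IL-2) and interleukin-7 (IL-7), and Jak1, Jak3, Stat5a and Stat5b encode the kinases and transcription factors through which these receptors signal. Cish, Socs2 and Pim1 are well-known transcriptional targets of STAT5. These 10 genes were chosen by symbol, and all 10 have a row among the 12151 genes of the expression table. The choice was made with earlier results of these libraries known, because Il2ra had stood among the lowest genes in KO against WT cells. Values of that contrast are therefore given as a description, without a test. The effect of β-catenin on the 10 genes and its difference between KO and WT cells were tested.

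The 12 RNA libraries came from pre-B cells that grew under BCR-ABL1, an oncogenic tyrosine kinase, and stand for acute lymphoblastic leukemia of B cells (B-ALL) in the mouse. All cells came from the bone marrow of Ctnnb1Ex3fl/+ mice aged 6 to 12 weeks, in which exon 3 of 1 copy of the β-catenin gene can be cut out by Cre. The cells were first grown with IL-7, which was withdrawn once BCR-ABL1 had been introduced. They were then edited with Cas9 ribonucleoproteins carrying nontargeting guides (sgNTC, called WT here) or with guides to both Ikzf1 and Ikzf3 (KO), after which single cells were expanded into lines. A GFP vector for ERT2 alone or for Cre-ERT2 was added, and GFP+ cells were sorted. 4-OHT, which activates Cre-ERT2 and so stabilizes β-catenin, was given for 1 day according to a protocol worded for chromatin experiments. Each vector in each background gave 3 libraries, for 4 groups called ERT2 WT and Cre-ERT2 WT, then ERT2 KO and Cre-ERT2 KO. Whether replicates came from separate clones or cultures is not given in the labels, so p-values measure only the spread between these libraries, which may be technical. A difference between clones cannot be told apart from the edit, nor an effect of Cre itself from that of β-catenin.

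IL-7 drives the growth and survival of normal pre-B cells. Its receptor pairs IL-7Rα (Il7r) with the common γ chain (Il2rg), and the high-affinity IL-2 receptor pairs CD25 (Il2ra) with a β chain and the same γ chain. JAK1 and JAK3 sit on the receptor tails and phosphorylate STAT5A and STAT5B, which move to the nucleus and switch on genes for survival and for feedback inhibitors. BCR-ABL1 activates STAT5 without a cytokine. CD25 is a surface marker of late pre-B cells, and IKZF1 (Ikaros) and IKZF3 (Aiolos) are zinc finger factors that control this stage.

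The guides that define the KO libraries are shown first, with the PAM next to each site in capitals. They were read from the study's guide list and located in GENCODE vM21 transcripts (GRCm38). The Ikzf1 guide lies on the minus strand in coding exon 3 of Ikzf1-201 at chr11:11707798-11707817, in 5 of 6 Ikzf1 transcripts. The Ikzf3 guide lies on the minus strand in coding exon 4 of Ikzf3-201 at chr11:98490523-98490542, in 1 of 4 Ikzf3 transcripts.
Ikzf1 guide: ctggagtgtcactgactgggGGG
Ikzf3 guide: attatgaagccggagcccatGGG

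The sequences before the RefSeq starts of Il2ra and Il7r are shown because these receptor chains had the widest gaps between KO and WT among the 7 receptor, kinase and STAT genes. They are RefSeq sequences (GRCm38.p6), written on the strand of the gene, and neither stretch overlaps an exon of the annotation. For Il2ra, the 250 bases at chr2:11642542-11642791 (plus strand) hold 1 copy of GGGAA, the core bound by Ikaros, in capitals, 201 to 197 bases before the start. For Il7r, the 160 bases at chr15:9529877-9530036 (minus strand) hold TTCAGGGAA 142 to 134 bases before the RefSeq start, which matches the STAT motif TTCNNNGAA and contains a GGGAA. GENCODE places the outer end of Il7r further out, at 9530176, so this stretch lies before the RefSeq start but inside the gene as GENCODE draws it. The same stretch holds a GGGAA on the other strand, written TTCCC, 6 to 2 bases before the RefSeq start.
Il2ra before the RefSeq start: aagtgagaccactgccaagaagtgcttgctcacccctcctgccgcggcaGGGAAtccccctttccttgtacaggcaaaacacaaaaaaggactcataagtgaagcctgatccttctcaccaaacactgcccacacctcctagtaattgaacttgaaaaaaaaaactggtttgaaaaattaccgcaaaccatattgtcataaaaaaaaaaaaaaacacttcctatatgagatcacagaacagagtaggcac
Il7r before the RefSeq start: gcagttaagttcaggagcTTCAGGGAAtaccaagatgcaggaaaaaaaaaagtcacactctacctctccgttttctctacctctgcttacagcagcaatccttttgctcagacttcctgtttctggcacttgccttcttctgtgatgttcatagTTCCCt
Among 32851 RefSeq windows of 250 bases, 56.24% hold GGGAA on either strand, 7.02% hold TTCNNNGAA and 13.83% hold the TCF motif CTTTGA. Neither TTCNNNGAA nor CTTTGA occurs in the Il2ra window. A match is only a run of letters and was not tested for binding.

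The edited transcripts were still present in KO libraries. Ikzf1 ranged from 13.66 to 13.75 in the 6 WT libraries and from 14.56 to 14.76 in the 6 KO libraries, and Ikzf3 ranged from 11.59 to 11.93 in WT and from 10.97 to 11.34 in KO. All expression values here are log2 normalized values as deposited. A whole-gene value does not read a small edit, so it checks the KO label only in part, and KO means the libraries so labelled. Of 12 markers of B cell precursors all 12 have a row, among them Pax5 and Vpreb1. Their summed level was 16.88 to 16.92 in WT libraries and 16.46 to 16.52 in KO libraries, with 8 of the 12 called lower and 2 higher in ERT2 KO than in ERT2 WT, beside 29.3% and 29.8% of all genes. With β-catenin 2 of the 12 rose and 6 fell in each background, beside 5.93% and 5.95% of all genes in WT and 7.27% and 5.33% in KO cells. The spread between replicates was small, and the median library value ran from 9.06 to 9.11. The depth is unknown.

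The receptor gene Il2ra separated the 4 groups without overlap. Il2ra (GENCODE: chr2:11642807-11693193, plus strand) encodes CD25, the chain that raises the affinity of the receptor for IL-2. Its log2 values were 11.48, 11.49 and 11.50 in ERT2 WT and 11.89, 11.89 and 11.86 in Cre-ERT2 WT. In ERT2 KO the values were 8.09, 8.08 and 8.18, and in Cre-ERT2 KO they were 8.50, 8.57 and 8.49. Cre-ERT2 WT was highest, followed by ERT2 WT, then Cre-ERT2 KO, with ERT2 KO lowest. In bulk RNA, fewer cells expressing a gene and less RNA per cell cannot be told apart.

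Il2ra was higher in Cre-ERT2 than in ERT2 libraries of both backgrounds, the contrast called the β-catenin effect here. The log2 difference between Cre-ERT2 and ERT2 was 0.39 in WT cells (SE 0.031, limma, adjusted p = 4.81e-06), a 1.31-fold change. In KO cells it was 0.40 (SE 0.031, limma, adjusted p = 2.53e-06), a 1.32-fold change. Each comparison separated all 3 Cre-ERT2 from all 3 ERT2 libraries, and the exact 2-sided permutation test gave p = 0.1, the smallest that 3 against 3 allows. Il2ra ranked 69 from the top of 12151 genes in WT cells and 107 in KO cells. The effect in KO minus that in WT was 0.01, with a 95% interval of -0.08 to 0.11 (limma, adjusted p = 0.928), so a difference of effect was not detected and the interval bounds its size on this scale.

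The gap in Il2ra between KO and WT was much wider than the β-catenin effect. The log2 difference was -3.38 (SE 0.031) in ERT2 libraries and -3.36 (SE 0.031) in Cre-ERT2 libraries, or 10.4-fold and 10.3-fold lower levels. These ranked 4 and 5 from the bottom of all 12151 genes. They are the values that led to the choice of the gene and carry no test.

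**Figure D1:**
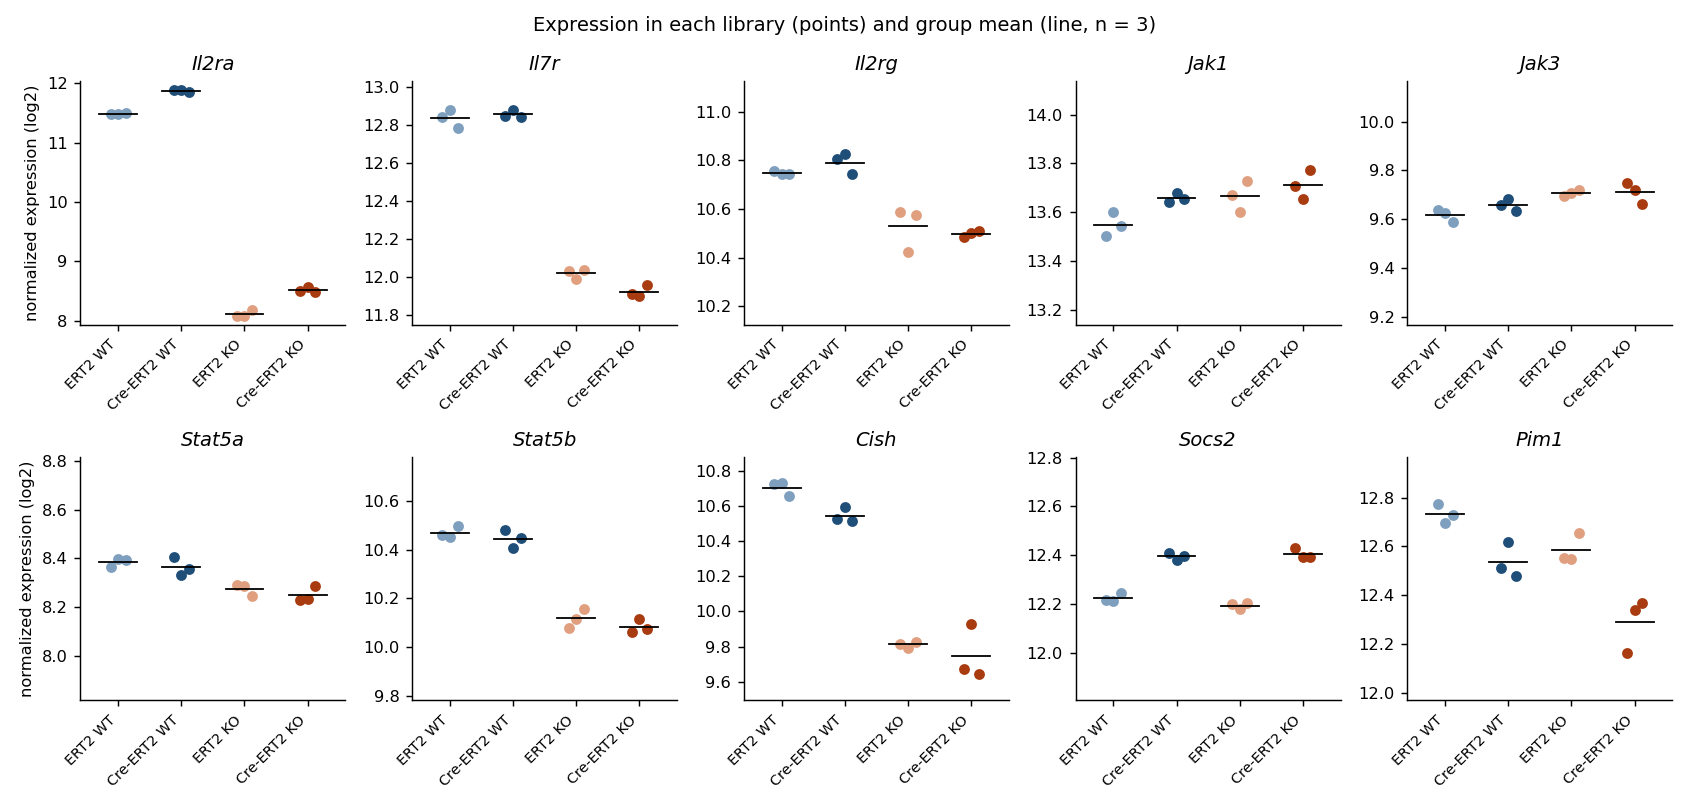
Log2 normalized expression of the 10 genes in each of the 12 libraries (points, by group on the x axis) with the group mean of 3 libraries as a line; the y axis differs between panels and does not start at 0. Il2ra sits between 11.48 and 11.89 in WT and between 8.08 and 8.57 in KO libraries, and Il7r and Cish are also lower in all KO libraries.

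Markers of other cell types moved in some of the same comparisons. Il2ra is also expressed by T cells, and 3 of 12 T cell markers have a row (Cd5, Cd28 and Ctla4). The other 9 of this list, among them Cd3e, Cd4, Cd8a, Foxp3 and Trac, have no row under these symbols and could not be read. All 3 rose with β-catenin in both backgrounds, and their summed level went from 7.87 to 7.90 in ERT2 WT up to 8.26 to 8.36 in Cre-ERT2 WT. In KO libraries it went from 8.06 to 8.08 up to 9.47 to 9.57. Cd28, a costimulatory receptor, rose by 0.44 (SE 0.032) in WT and 1.96 (SE 0.032) in KO cells. These values are given without a test, because Cd28 was named after its values were seen. Between KO and WT, Nkg7 was 6.60 in all 6 WT and 8.47 to 8.68 in KO libraries, and the myeloid gene Lyz2 was 7.35 to 7.42 in WT and 8.35 to 8.68 in KO libraries. The summed level of the 2 NK markers with a row (of 6) was 6.67 to 6.68 in WT and 8.49 to 8.70 in KO libraries. That of the 2 myeloid markers (of 10) was 7.57 to 7.62 and 8.45 to 8.76. These sums mainly follow Nkg7 and Lyz2, the genes with the higher level. The other measured marker of each list did not rise in KO libraries. The NK marker Klrb1c stayed between 2.398 and 2.431 over all 12 libraries. The myeloid marker Itgam was 4.65 to 4.74 in WT and lower, 4.51 to 4.52, in KO libraries. None of 5 mast cell or 5 erythroid markers has a row. The part of other cells in the Il2ra values was not tested.

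Il7r showed a smaller gap and no gain with β-catenin. Il7r (chr15:9505788-9530176, minus strand) encodes IL-7Rα, the receptor chain through which IL-7 and TSLP signal. Its values were 12.84, 12.88 and 12.78 in ERT2 WT and 12.85, 12.88 and 12.84 in Cre-ERT2 WT. They were 12.03, 11.99 and 12.03 in ERT2 KO and 11.91, 11.90 and 11.96 in Cre-ERT2 KO. All KO libraries lay below all WT libraries, by 0.82 (ERT2) and 0.93 (Cre-ERT2) between group means. The WT groups overlapped, with a β-catenin effect of 0.02 (95% interval -0.04 to 0.08, limma, adjusted p = 0.711). In KO cells Il7r fell by 0.10 (SE 0.027, limma, adjusted p = 0.0366) and the groups did not overlap. That call did not hold without any 1 of 7 libraries (ERT2 WT replicate 1, Cre-ERT2 WT replicates 1 and 3, ERT2 KO replicates 1 and 3, Cre-ERT2 KO replicates 1 and 2), where limma gave an adjusted p from 0.0508 to 0.116. It also did not hold when only the 6 KO libraries were fitted (limma, adjusted p = 0.0765) or with the replicate number as a block (0.0667). The effect in KO minus that in WT was -0.12 (95% interval -0.20 to -0.03, limma, adjusted p = 0.122), which was called only after quantile normalization (-0.13, limma, adjusted p = 0.0448).

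Il2rg (chrX:101264378-101268255, minus strand) encodes the common γ chain, shared by the receptors for IL-2, IL-4, IL-7, IL-9, IL-15 and IL-21. It ranged from 10.74 to 10.83 over the 6 WT libraries and from 10.43 to 10.59 over the 6 KO libraries. KO was lower by 0.22 in ERT2 and by 0.29 in Cre-ERT2 libraries. The β-catenin effects were 0.04 in WT and -0.03 in KO cells, and in each background the groups overlapped (limma, adjusted p = 0.550 and 0.676).

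The kinase genes varied little. Jak1 (chr4:101152367-101265282, minus strand), whose product associates with IL-7Rα and the IL-2 receptor β chain, was 13.50, 13.60 and 13.54 in ERT2 WT and 13.64, 13.68 and 13.65 in Cre-ERT2 WT. It was 13.67, 13.60 and 13.73 in ERT2 KO and 13.71, 13.66 and 13.77 in Cre-ERT2 KO. The WT groups did not overlap, but the β-catenin effect of 0.11 (SE 0.037) did not pass the test (limma, adjusted p = 0.0808). Jak3 (chr8:71676296-71690575, plus strand), whose product binds the γ chain, ranged from 9.59 to 9.75 over all 12 libraries. Its β-catenin effects were 0.04 and 0.00 (limma, adjusted p = 0.386 and 0.964). The KO against WT differences were 0.12 and 0.06 for Jak1 and 0.09 and 0.05 for Jak3.

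Stat5a and Stat5b are neighbouring, near-identical paralogs on chromosome 11 (chr11:100859351-100885169, plus strand, and chr11:100780731-100850724, minus strand). Reads that fit both can be divided between them, so a change in 1 of them is uncertain. Stat5b was 10.46, 10.45 and 10.50 in ERT2 WT and 10.48, 10.41 and 10.45 in Cre-ERT2 WT. In KO libraries it was 10.08, 10.12 and 10.16 (ERT2) and 10.06, 10.11 and 10.07 (Cre-ERT2). No KO library reached a WT library, and the differences between means were -0.35 and -0.36. Stat5a ranged from 8.33 to 8.40 in WT and from 8.23 to 8.29 in KO libraries, with differences of -0.11 and -0.12. With β-catenin Stat5a and Stat5b differed by -0.02 each in WT cells and by -0.02 and -0.03 in KO cells, with 95% intervals within -0.10 to 0.04 and limma adjusted p of 0.525 or more.

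Of the 3 STAT5 targets, Cish and Pim1 had negative differences with β-catenin and in KO against WT, of unlike size. Socs2 rose with β-catenin. Cish (chr9:107296026-107302784, plus strand) encodes an SH2 protein that damps cytokine receptor signalling. It was 10.72, 10.73 and 10.66 in ERT2 WT, 10.52, 10.59 and 10.51 in Cre-ERT2 WT, 9.82, 9.79 and 9.83 in ERT2 KO and 9.67, 9.93 and 9.65 in Cre-ERT2 KO. KO was lower by 0.89 and 0.79, and Cre-ERT2 KO replicate 2 stood above the other two libraries of its group. The β-catenin effects, -0.16 in WT (SE 0.060) and -0.06 in KO cells (SE 0.060), did not pass the test (limma, adjusted p = 0.110 and 0.561). Without Cre-ERT2 KO replicate 2 both passed, at -0.16 and -0.16 (limma, adjusted p = 0.00449 and 0.0122). In WT cells it also passed when only the 6 WT libraries were fitted (limma, adjusted p = 0.0263).

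Socs2 (chr10:95385362-95417180, minus strand) encodes a feedback inhibitor known for its action on growth hormone signalling. Its values were 12.22, 12.21 and 12.24 in ERT2 WT and 12.41, 12.38 and 12.40 in Cre-ERT2 WT. In KO cells they were 12.20, 12.18 and 12.20 in ERT2 and 12.43, 12.39 and 12.39 in Cre-ERT2. Every Cre-ERT2 library was above every ERT2 library. Socs2 rose by 0.17 in WT (SE 0.020, limma, adjusted p = 0.000118) and by 0.21 in KO cells (SE 0.020, limma, adjusted p = 1.39e-05). The KO against WT differences of -0.03 and 0.01 are near 0, and their sign turned under other scalings of the libraries.

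Pim1 (chr17:29490753-29496112, plus strand) encodes a serine/threonine kinase that promotes survival. Its values were 12.77, 12.70 and 12.73 in ERT2 WT, 12.51, 12.62 and 12.48 in Cre-ERT2 WT, 12.55, 12.55 and 12.66 in ERT2 KO and 12.16, 12.34 and 12.37 in Cre-ERT2 KO. Within each background all Cre-ERT2 libraries lay below all ERT2 libraries. Pim1 fell by 0.30 in KO cells (SE 0.053, limma, adjusted p = 0.00270) and by 0.20 in WT cells (SE 0.053, limma, adjusted p = 0.0303). The WT call did not hold without any 1 of ERT2 WT replicates 1, 2 or 3 or Cre-ERT2 WT replicates 1 or 3, where limma gave an adjusted p from 0.0504 to 0.116. Between KO and WT, Pim1 was lower by 0.15 and 0.25.

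**Figure D2:**
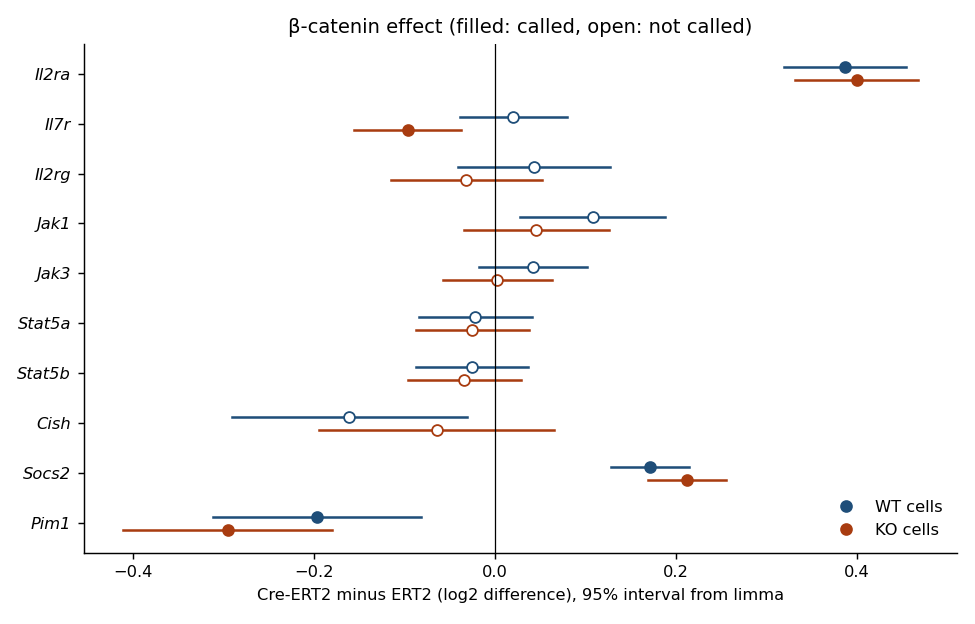
Log2 difference Cre-ERT2 minus ERT2 for each of the 10 genes in WT cells (blue) and KO cells (red), with 95% intervals from limma; filled points were called at an adjusted p under 0.05. Il2ra has the largest value in both backgrounds (0.39 and 0.40), Socs2 is higher and Pim1 lower in both, and the intervals of Stat5a and Stat5b span 0.

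Over the 10 genes, 3 were called for β-catenin in WT cells (Il2ra and Socs2 higher, Pim1 lower), beside 11.9% of all 12151 genes (5.93% higher and 5.95% lower). In KO cells 4 were called (Il2ra and Socs2 higher, Il7r and Pim1 lower), beside 12.6% of all genes (7.27% higher and 5.33% lower). The median effect was 0.03 over the 10 genes and 0.00 over all genes in WT cells, and -0.03 and 0.00 in KO cells. The difference of the effects was called by limma for 0 of the 10 genes, beside 4.53% of all genes (2.71% higher and 1.82% lower in KO). At an unadjusted p under 0.05 it was 1 gene, Il7r, which was also the 1 gene called after quantile normalization.

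In KO against WT, which entered the choice of genes, the counts past the threshold are only a description and nothing is read from them. They were 9 of the 10 genes in ERT2 libraries (2 higher, 7 lower), beside 59% of all genes (29.8% higher and 29.3% lower). In Cre-ERT2 libraries they were 7, all lower, beside 58.9% of all genes (30.4% higher and 28.6% lower). With libraries centred on their medians the ERT2 counts were 0 higher and 8 lower, beside 23.6% and 39.1% of all genes. The median difference was -0.18 (ERT2) and -0.27 (Cre-ERT2) over the 10 genes, beside 0.00 over all genes in each.

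The rest of the pathway was read from 9 lists of 89 genes, the 10 genes included, of which 71 have a row. β-catenin called 15 of the 71 in WT cells (6 higher, 9 lower) and 17 in KO cells (9 higher, 8 lower), or 21.1% and 23.9% beside 11.9% and 12.6% of all genes. KO against WT called 53 in ERT2 libraries (19 higher, 34 lower), or 74.6% beside 59% of all genes. It called 49 in Cre-ERT2 libraries (11 higher, 38 lower), or 69.0% beside 58.9%. The 10 genes, chosen with this contrast known, gave 9 of the 53 and 7 of the 49. The KO against WT shares are therefore only a description, and nothing is read from them. After centring on library medians the ERT2 split was 10 higher and 40 lower, beside 23.6% and 39.1% of all genes, and the Cre-ERT2 split 7 higher and 43 lower, beside 24.5% and 39.4%. The shares over all genes in each direction apply to the counts of every list that follows, which are given as a description. The ERT2 KO against ERT2 WT median was -0.08 over the 71 genes and 0.00 over all genes.

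**Figure D3:**
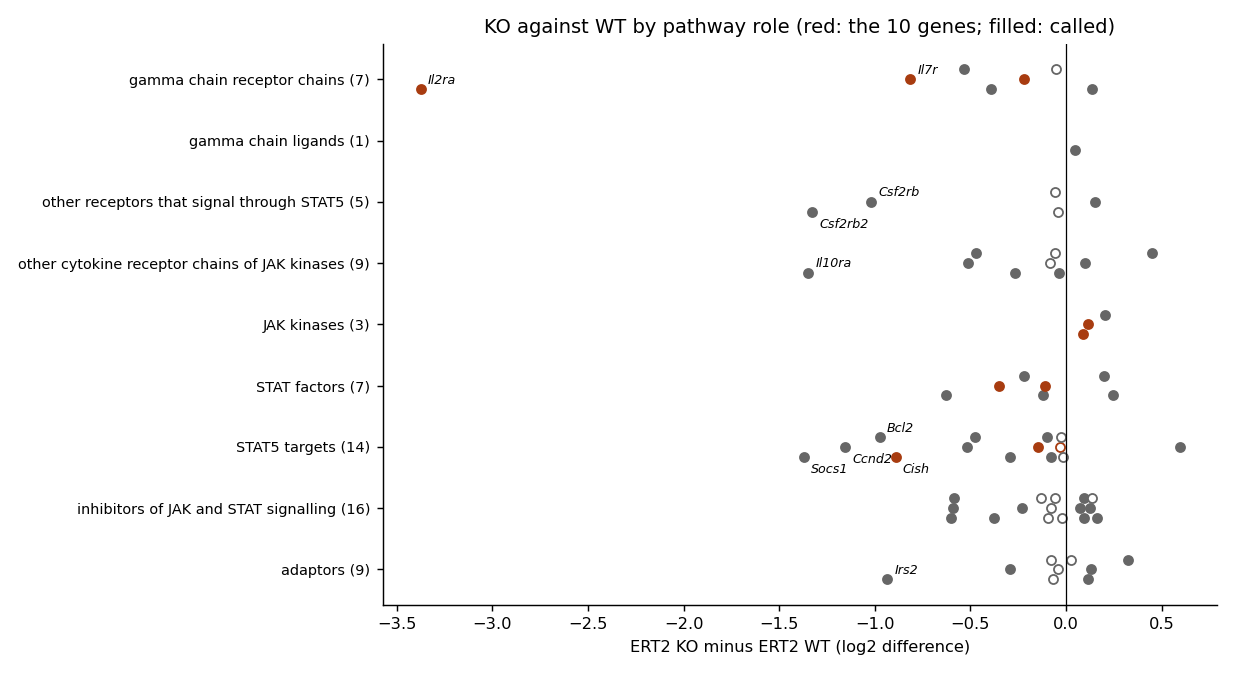
Log2 difference ERT2 KO minus ERT2 WT for the 71 pathway genes with a row, in 9 lists by role (number of genes with a row in brackets); the 10 genes are red, filled points were called, vertical offsets only separate points, and genes at 0.8 or more on either side are named. Il2ra lies at -3.38, and the next lowest are Socs1 (-1.37), Il10ra (-1.35) and Csf2rb2 (-1.33).

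Among receptor chains of the γ chain family, 7 of 9 have a row, all but Il2rb (the IL-2 receptor β chain) and Il9r. The IL-2 receptor is thus read only from Il2ra and Il2rg. Of the 7, 5 were lower and 1 higher in ERT2 KO than in ERT2 WT (5 and 0 in Cre-ERT2). Of the 7 ligands only 1 has a row, so the cytokines themselves could hardly be read. Of 5 measured chains of other STAT5-activating receptors, 2 were lower and 1 higher in KO in each vector. Csf2rb encodes the β chain shared by the receptors for IL-3, IL-5 and GM-CSF, and Csf2rb2 a β chain for IL-3. Csf2rb and Csf2rb2 are near-identical, so reads can be divided between them. Csf2rb was 11.98, 12.01 and 12.02 in ERT2 WT, 11.67, 11.59 and 11.64 in Cre-ERT2 WT, 10.96, 11.02 and 10.97 in ERT2 KO and 10.94, 10.93 and 10.89 in Cre-ERT2 KO. Csf2rb fell by 0.37 with β-catenin in WT cells (SE 0.027, limma, adjusted p = 2.49e-06), against -0.07 in KO cells (0.154). Csf2rb2 fell by 0.39 in WT cells (SE 0.041, limma, adjusted p = 5.01e-05), against 0.05 in KO cells (0.467). The difference of effects was called for both, at 0.30 and 0.44 (limma, adjusted p = 0.00063 and 0.000756). Unlike Il2ra, these receptor genes moved down with β-catenin where they were highest.

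Other receptor chains of JAK kinases had 9 of 14 genes with a row, and 5 were lower and 2 higher in KO in each vector. Il10ra, the ligand-binding chain of the IL-10 receptor, was 11.16 to 11.23 in the 6 WT libraries and 9.78 to 9.95 in the 6 KO libraries. Its differences were -1.35 in ERT2 and -1.30 in Cre-ERT2 libraries (SE 0.039 each), given without a test because their size chose the gene. Of the JAK kinase genes 3 of 4 have a row, and none was called for β-catenin. In ERT2 KO against ERT2 WT 3 were higher and 0 lower (1 and 0 in Cre-ERT2). All 7 STAT genes have a row, and in each vector 5 were lower and 2 higher in KO. Stat3, which carries signals of the IL-6 family, was among the higher pair (0.24 in ERT2 libraries).

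STAT5 targets had 14 of 14 genes with a row, and 10 were lower and 1 higher in ERT2 KO than in ERT2 WT, beside 29.3% and 29.8% of all genes (9 and 1 in Cre-ERT2, beside 28.6% and 30.4%). With β-catenin 2 rose and 5 fell in WT cells, and 4 rose and 4 fell in KO cells. Bcl2, which blocks apoptosis, was 10.43, 10.40 and 10.31 in ERT2 WT, 11.00, 11.07 and 11.01 in Cre-ERT2 WT, 9.43, 9.38 and 9.41 in ERT2 KO and 9.84, 9.85 and 9.94 in Cre-ERT2 KO. As with Il2ra, each vector was lower in KO and each background higher with β-catenin. Bcl2 rose by 0.65 in WT (SE 0.036, limma, adjusted p = 2.08e-07) and by 0.47 in KO cells (SE 0.036, limma, adjusted p = 2.54e-06). Its KO against WT differences were -0.97 and -1.15 (SE 0.036 each), given without a test. The difference of its effects was -0.18 (limma, adjusted p = 0.081), and it was called without Cre-ERT2 KO replicate 3 (0.0326).

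Ccnd2 encodes cyclin D2, which drives entry into the cell cycle, and its β-catenin effect had opposite signs in the backgrounds. It was 13.75, 13.82 and 13.75 in ERT2 WT and 13.62, 13.63 and 13.62 in Cre-ERT2 WT, a fall by 0.15 (SE 0.028, limma, adjusted p = 0.00316). It was 12.65, 12.59 and 12.62 in ERT2 KO and 12.90, 12.93 and 12.99 in Cre-ERT2 KO, a rise of 0.32 (SE 0.028, limma, adjusted p = 7.28e-06). The difference of effects was 0.47 (95% interval 0.39 to 0.56, limma, adjusted p = 1.88e-05).

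The feedback inhibitors Socs1 and Socs3 and the kinase gene Pim2 complete the named targets. Socs1, which inhibits JAK kinases, was 8.83 to 9.03 in WT and 7.36 to 7.73 in KO libraries, lower by 1.37 in ERT2 and 1.28 in Cre-ERT2 KO (SE 0.069 each), which chose the gene. Socs3 fell by 0.19 with β-catenin in WT cells (limma, adjusted p = 0.00246), against 0.00 in KO cells (0.978). The difference of 0.19 for Socs3 (limma, adjusted p = 0.0442) did not hold in 11 of 18 alternatives, where it reached an adjusted p of up to 0.108. Those were quantile normalization, the replicate block, and leaving out any 1 of ERT2 WT replicates 1 and 2, Cre-ERT2 WT replicates 1 and 3, ERT2 KO replicates 1 and 2 and each Cre-ERT2 KO library. Pim2, a relative of Pim1, was higher in KO by 0.59 and 0.41 (SE 0.031 each), the opposite side from Pim1. Pim2 fell by 0.12 with β-catenin in KO cells (limma, adjusted p = 0.0265), which was lost when only 6 libraries were fitted (0.106) or without ERT2 KO replicate 2 or 3 or Cre-ERT2 KO replicate 1 or 3 (up to 0.102). Its difference of effects was -0.19 (limma, adjusted p = 0.0302), which was lost without ERT2 WT replicate 1 or 3, any Cre-ERT2 WT library or ERT2 KO replicate 3 (up to 0.0748).

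Inhibitors of JAK and STAT signalling had 16 of 16 genes with a row, and 5 were higher and 5 lower in ERT2 KO (2 and 8 in Cre-ERT2), and adaptors had 9 of 9, with 3 higher and 2 lower (1 and 4). Irs2, an adaptor of insulin and cytokine receptors, was 10.43 to 10.63 in WT and 9.46 to 9.63 in KO libraries. Irs2 was lower in KO by 0.94 and 1.04 (SE 0.034 each), which chose the gene, and rose by 0.16 with β-catenin in WT cells (limma, adjusted p = 0.00847).

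**Figure D4:**
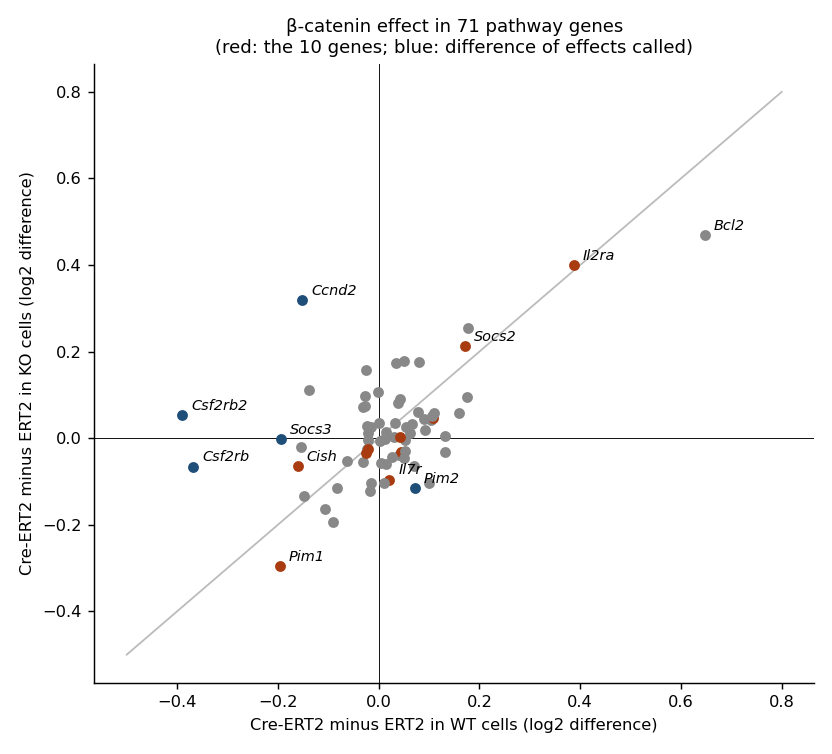
β-catenin effect (log2 difference Cre-ERT2 minus ERT2) of the 71 pathway genes in WT cells (x axis) and KO cells (y axis); the 10 genes are red, the 5 genes with a called difference of effects are blue, and the grey diagonal marks equal effects. Il2ra lies close to the diagonal, while Csf2rb, Csf2rb2 and Ccnd2 lie above it.

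Over the 71 genes the difference of the β-catenin effect was called for 5, or 7.04%, beside 4.53% of all genes (2.71% higher and 1.82% lower). Csf2rb, Csf2rb2, Ccnd2 and Socs3 were higher and Pim2 lower in KO. The calls of Socs3 and Pim2 were lost in 11 and 6 of 18 alternatives. After quantile normalization the split was 4 higher and 2 lower, beside 2.37% and 1.81% of all genes.

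The profile of Il2ra was compared with that of every other gene over the 12 libraries, by root mean square distance after centring each gene on its mean. Among the 5 nearest were Fzd6 (0.18), Kynu (0.20), Dock8 (0.25) and Blk (0.34). Fzd6 encodes a Frizzled receptor, Kynu an enzyme of tryptophan breakdown, Dock8 an activator of small GTPases and Blk a Src-family kinase of B cells. Their ERT2 KO minus ERT2 WT differences ran from -3.05 for Kynu to -3.81 for Blk, around the -3.38 of Il2ra. With β-catenin in WT cells Fzd6 (0.09), Kynu (0.20) and Dock8 (0.22) had positive differences, while Blk had -0.30. In KO cells the difference was 0.16 for Kynu, with overlapping groups, -0.006 for Fzd6, -0.003 for Dock8 and -0.09 for Blk. In KO libraries Fzd6 stayed between 6.61 and 6.64 and Dock8 between 6.64 and 6.70, close to the level at which Nkg7 was constant in WT cells (6.60), and whether their KO values sit at the bottom of the scale was not tested.

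**Figure D5:**
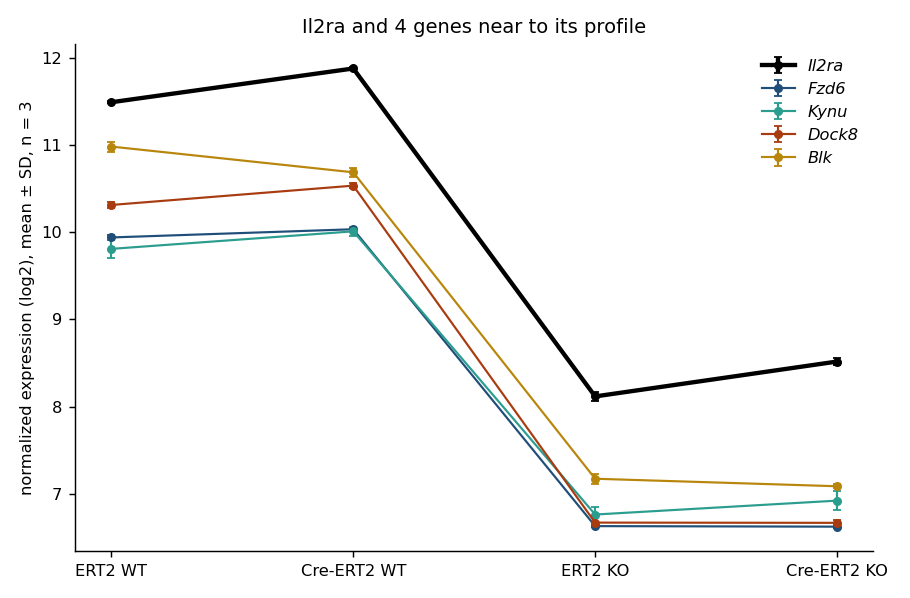
Group means of log2 normalized expression with SD (n = 3) for Il2ra (black) and 4 genes with a near centred profile, by group on the x axis. All 5 lie about 3 to 4 lower in KO than in WT groups. With β-catenin in KO, Il2ra rises from 8.12 to 8.52 and the mean of Kynu from 6.76 to 6.92, while Fzd6 and Dock8 are flat.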

How the data were processed

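The deposited table holds log2 expression values that the authors normalized between libraries, for 12 libraries and 12151 genes, with no counts. The submitters' processing notes name Salmon 1.4.0, STAR 2.7.6, DESeq2 1.30.1 and mm10 (GRCm38), and the libraries were stranded and poly(A)-selected. The transformation is not stated. It may compress low values, which would understate changes of weakly expressed genes. Because the table holds log2 values without counts, the depth of each library is unknown.

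Groups came from the sample titles. In R 4.3.3, limma 3.58.1 fitted 4 group means over the 12 libraries (lmFit, then eBayes with trend), with no filter and no covariate. P values were adjusted over 12151 genes with the Benjamini-Hochberg method, and genes under 0.05 were called. Single genes were checked with exact permutation tests, and the scripts were tested on simulated data. The 10 genes and the lists were chosen with earlier results of these data known. Genes of the lists were named when called for the difference of effects, called with a β-catenin effect of at least 0.5, or changed by at least 1 between KO and WT. Stat3, Cd28, Nkg7, Klrb1c, Lyz2 and Itgam were named after their values were seen. Genes among the 5 nearest profiles of Il2ra were also named, and some items are not reported here. Alternatives were a pseudocount of 1, a mean of at least 6, median centring, quantile normalization, 6-library fits, a replicate block, other priors, a threshold of 0.01 and each library left out. Replicate numbers did not pair the libraries.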

Additional observations from a re-analysis of the deposited data

How the results depend on the processing

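The 5 counts of called genes among the 10 stayed within 1.5 times of their values in all alternatives, except that the difference of the β-catenin effect was called for 1 gene (Il7r) after quantile normalization in place of 0. The signs of some values near 0 turned. The β-catenin effect on Jak3 in KO cells was -0.0042 after median centring, -0.0065 after quantile normalization and -0.0153 to 0.0263 when single libraries were left out. Socs2 in KO against WT was -0.0235 in Cre-ERT2 libraries after median centring, 0.0120 in ERT2 libraries after quantile normalization, and -0.0027 to 0.0174 in Cre-ERT2 libraries without single libraries. Leaving out single libraries gave -0.0041 to 0.0415 for the Il7r effect in WT cells, and for the difference of effects it gave -0.0115 to 0.0452 for Il2ra, -0.0208 to 0.0165 for Stat5a and -0.0276 to 0.0111 for Stat5b. The Il2ra effects ranged from 0.38 to 0.40 in WT and from 0.38 to 0.43 in KO cells over all alternatives. Correlations of deviations between libraries with the same replicate number ran from -0.07 to 0.31, so the numbers were not taken as pairs. With the replicate block the Il7r effect in KO cells remained -0.10 but lost its call (limma, adjusted p = 0.0667). Without counts, neither depth nor counting error could limit or support a value. The causes of these changes were not tested.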

Other observations

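The annotated neighbours of Il2ra on chromosome 2 were examined after the Il2ra values were seen, within 250000 bases on either side (GENCODE vM21, GRCm38), and 5 of them have a row. Rbm17, a splicing factor 38654 bases away, differed by 0.01 between ERT2 KO and ERT2 WT, and Ankrd16 by -0.03. Il15ra, the gene of the related IL-15 receptor α chain 12097 bases away, differed by 0.13 in ERT2 and by 0.00 in Cre-ERT2 libraries. Fbh1, a DNA helicase gene, was higher in KO by 0.27 and 0.20, and Pfkfb3, which encodes a regulator of glycolysis, was lower by 0.28 and 0.23. All of these are small beside the -3.38 of Il2ra. With β-catenin, Pfkfb3 differed by 0.20 in WT and 0.25 in KO cells, and the other 4 by -0.07 to 0.07.

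Myc, which STAT5 and β-catenin are both known to control, lay on the opposite side from Il2ra in both comparisons. It was 12.20 to 12.22 in ERT2 WT, 11.56 to 11.62 in Cre-ERT2 WT, 13.30 to 13.31 in ERT2 KO and 12.99 to 13.01 in Cre-ERT2 KO, so that every KO library was above every WT library and every Cre-ERT2 library below every ERT2 library of its background. This gene was named after its values were seen.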
